A study of Mus musculus with 28 samples.

Results

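The genes described here are 34 markers of liver endothelium, the cells that line the vessels of the liver. They were taken as the probes whose accession maps to the symbols of a fixed list, and they split into 5 markers of the sinusoid (Stab2, Lyve1, Clec4g, Oit3 and Fcgr2b) and 29 general ones. All 34 genes were measured among 20303 features tested, through 47 probes of which 46 passed the filter on dim probes. The measurements were 28 single-colour microarrays hybridised with liver RNA, from 7 groups of mice with 4 arrays apiece.

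All mice lacked Fah, the final enzyme of tyrosine breakdown, so the controls carried this deletion too. Such mice live on NTBC (nitisinone), a drug that blocks an earlier step of the pathway and so keeps toxic intermediates from forming. Fah-/- mice and Fah-/- p53-/- mice, which also lack the tumour suppressor p53, were compared on full NTBC (100%, 7.5 mg/L in drinking water), on a reduced dose and with none (0%). Fah-/- p21-/- mice, which lack the cell cycle inhibitor p21, were measured with no NTBC. The labels of the samples put the reduced dose at 25% and their protocol at 2.5% of normal for 3 months, and it is named only as reduced below. The time without NTBC, the age of the mice and whether a group's 4 samples were from different animals are not given in the sources used here, so the p-values measure the spread between these samples. The labels give the deletions as genotypes of the mice, with no promoter or cell type named for them.

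Several features of the arrays move with the groups. Levels are log2 processed intensities relative to the array's 75th percentile, which lay between 251.8 and 578.1, and 54.8% to 68.5% of probes were well above background. The arrays were scanned in 4 runs on 7 slides, and each dose was scanned in runs of its own, so dose and scan run cannot be told apart. On full and on reduced NTBC each genotype filled a slide, which leaves the effects of genotype and slide there mixed, and they cannot be told apart. By Xist and the Y-linked Ddx3y, all 4 Fah-/- p53-/- arrays with no NTBC and 2 of 4 Fah-/- p21-/- arrays (replicates 1 and 2) carried female RNA and the other arrays male RNA. With no NTBC, p53 genotype and sex therefore cannot be told apart. Of 2 Trp53 probes, the dimmer was at -3.28 to -1.93 on the 12 p53-null arrays and at -1.46 to -0.02 on the other 16, while the brighter overlapped between genotypes. The Cdkn1a probe read 3.09 to 3.57 on the Fah-/- p21-/- arrays and so does not check that label.

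Liver sinusoids are lined by a thin, perforated endothelium without an ordinary basement membrane, which clears macromolecules from blood through scavenger and lectin receptors. The larger hepatic vessels are lined by continuous endothelium. Signals of the VEGF and TIE receptor systems maintain these cells, transcription factors of the ETS, SOX and GATA families set their identity, and the cells in turn send Wnt, R-spondin and BMP ligands to hepatocytes, where they shape zonation and iron control. In RNA of whole liver, fewer endothelial cells and less RNA per endothelial cell cannot be told apart, and a rise or fall of RNA from other cells shifts the scale on which all levels are read.

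Of the 34 genes, 32 were well above background on all 28 arrays, so the defining markers of liver endothelium were present in every group. Rspo3, a Wnt-enhancing ligand, was well above background on 0 of 4 Fah-/- arrays on full NTBC, on 3 of 4 with none and on 3 of 4 Fah-/- p53-/- arrays on full NTBC. Gata4, the transcription factor of sinusoidal identity, was so on 3 of 4 Fah-/- p53-/- arrays on full NTBC and on all others. Changes are given on the log2 scale with the SE of a single limma fit to all 28 arrays (n = 4 in each group). A gene is said to have risen or fallen where its p-value, adjusted over all 20303 features by the method of Benjamini and Hochberg, was under 0.05.

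**Figure D1:**
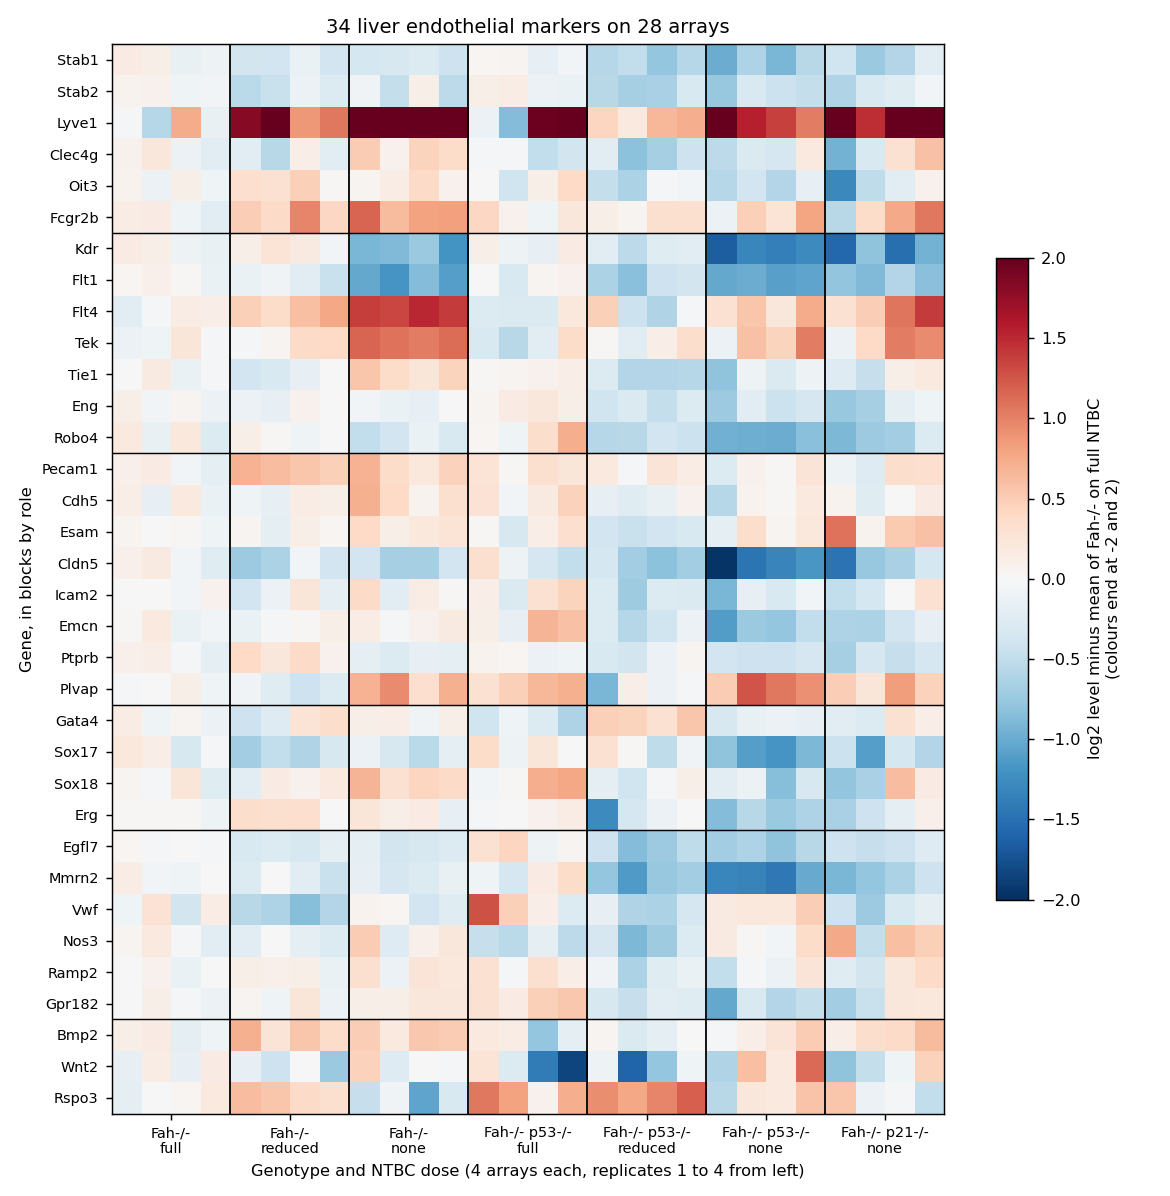
Each row is 1 of the 34 markers and each column 1 of the 28 arrays, in groups of 4 by genotype and NTBC dose. Colour gives the log2 level minus the gene's mean in Fah-/- mice on full NTBC, red above and blue below, and the most intense colours stand for differences of 2 or more. Fah-/- p53-/- arrays on reduced and no NTBC show blue in most rows, while Lyve1 is red in most arrays outside full NTBC.

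The receptors by which sinusoids clear blood did not move together when NTBC was lowered in Fah-/- mice. Lyve1, a hyaluronan receptor of sinusoidal and lymphatic endothelium, read -1.12, -1.67, -0.36 and -1.25 on the 4 Fah-/- arrays on full NTBC. It read 0.72, 1.05, -0.24 and -0.05 on the reduced dose and 1.54, 1.37, 1.32 and 2.02 with none. The 3 doses did not overlap. Lyve1 rose by 1.47 ± 0.52 on reduced NTBC (limma adjusted p = 0.0266) and by 2.66 ± 0.52 with none (8e-05). Fcgr2b, the inhibitory Fc receptor that takes up small immune complexes, read 1.10, 1.11, 0.86 and 0.74 on full NTBC and 2.11, 1.59, 1.76 and 1.77 with none. It rose by 0.85 ± 0.24 (limma adjusted p = 0.00299). Clec4g, a C-type lectin of the sinusoid, differed by 0.35 ± 0.24, Oit3 by 0.18 ± 0.21 and the hyaluronan scavenger receptor Stab2 by -0.24 ± 0.14, and none of these 3 passed. The other probe of Oit3 gave 0.92 (limma adjusted p = 0.0191).

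Stab2 was the sinusoidal marker that fell in Fah-/- p53-/- mice. It read 2.32, 2.36, 2.10 and 2.08 on full NTBC, 1.65, 1.54, 1.56 and 1.91 on the reduced dose and 1.45, 1.90, 1.78 and 1.73 with none. Every array of the lower doses lay below every array on full NTBC, and Stab2 fell by 0.55 ± 0.14 and by 0.50 ± 0.14. Lyve1 was spread widely in these mice, with -1.22, -1.97, 0.86 and 1.06 on full NTBC, where its change with no NTBC was 0.81 ± 0.52 (limma adjusted p = 0.169). Between genotypes no sinusoidal marker passed on its brightest probe at any dose. The differences of Lyve1 were 0.79 ± 0.52 on full, -0.97 ± 0.52 on reduced and -1.07 ± 0.52 with no NTBC, and all 5 differences were negative at the lower doses. The other probe of Oit3 was lower with p53 loss and no NTBC, by 1.16 (limma adjusted p = 0.025). There 1 sinusoidal marker was called with the deposited values, the mean of a gene's probes, the compared groups alone or the replicate block. On reduced NTBC 2 were called with the compared groups alone and 1 with the replicate block. The response of Lyve1 differed between genotypes by -1.86 ± 0.73 with no NTBC, which did not pass (limma adjusted p = 0.114).

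The mean of the 5 sinusoidal markers was set against that of the 29 general markers. In Fah-/- mice this difference of mean log2 levels was 1.27 ± 0.11 (SD, n = 4) on full NTBC, 1.65 ± 0.09 on the reduced dose and 1.98 ± 0.11 with none. In Fah-/- p53-/- mice it was 1.36 ± 0.25, 1.42 ± 0.08 and 1.77 ± 0.13, and in Fah-/- p21-/- mice with no NTBC 1.89 ± 0.22. These are descriptions, since the levels come from different probes and the difference has a meaning as a change between groups. Without Lyve1, left out after its range was seen, the difference was 1.98 ± 0.06, 2.08 ± 0.15 and 2.22 ± 0.15 in Fah-/- mice and 1.91 ± 0.08, 1.97 ± 0.06 and 2.12 ± 0.05 in Fah-/- p53-/- mice at the full, the reduced and no dose. The steps to reduced NTBC were then no larger than the wider SD of the groups compared, in both genotypes.

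**Figure D2:**
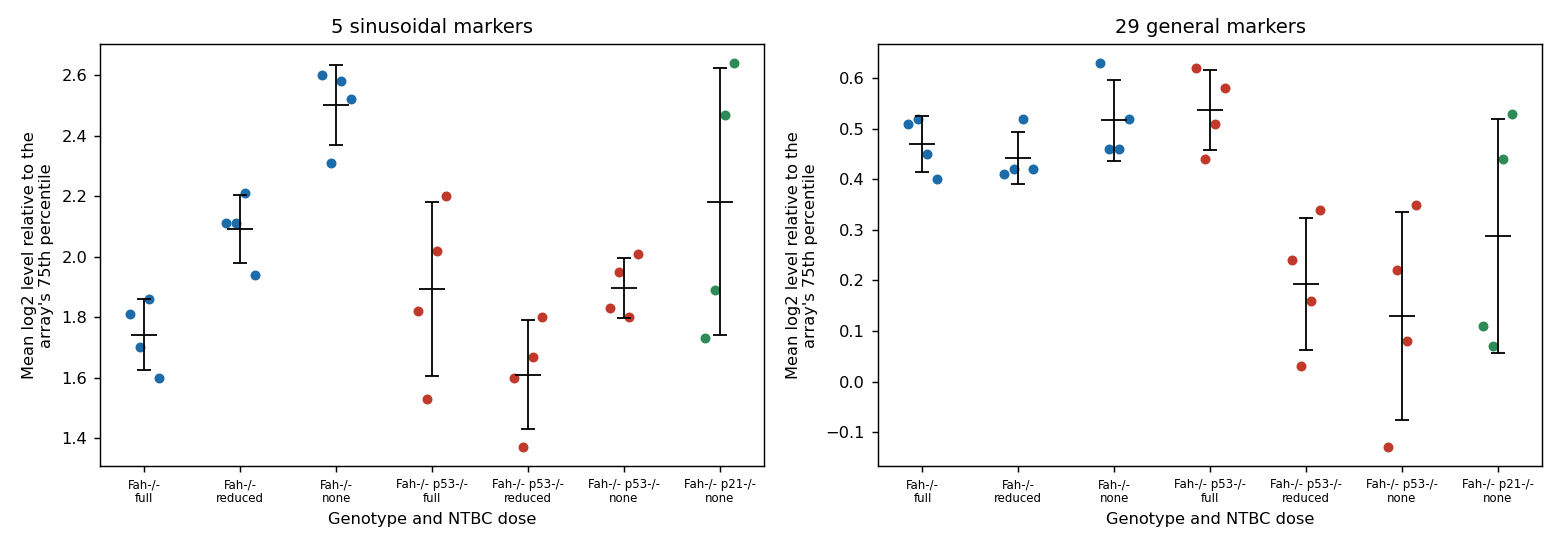
Points are the mean log2 levels of the 5 sinusoidal (left) and the 29 general markers (right) on each array, relative to the array's 75th percentile, by genotype and NTBC dose. Bars give the mean and SD of 4 arrays. The general markers lay at 0.40 to 0.63 on the 12 Fah-/- arrays and at -0.13 to 0.35 on the 8 Fah-/- p53-/- arrays on reduced and no NTBC.

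In Fah-/- mice the endothelial markers split when NTBC was withdrawn. Of 34 markers 9 rose and 5 fell, against 29.3% and 41.6% of all features, so the 14 called made up a smaller share than the 70.9% of all features called. The groups did not overlap for 17 of 34 markers, against 67% of all features. The median change was 0.09, and -0.17 over all features. The receptors of vascular growth factors divided: Kdr and Flt1, which bind VEGF-A, fell, while Flt4, the receptor of VEGF-C, Tek, the angiopoietin receptor, and its partner Tie1 rose.

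Kdr, the main signalling receptor for VEGF-A, read 2.74, 2.69, 2.48 and 2.43 on the Fah-/- arrays on full NTBC, 2.70, 2.86, 2.76 and 2.53 on the reduced dose and 1.66, 1.70, 1.83 and 1.39 with none. The arrays with no NTBC lay below all others of this genotype, and Kdr fell by 0.94 ± 0.15 (limma adjusted p = 6.01e-06). Flt1, which binds VEGF-A and limits its reach, read 2.02, 2.08, 2.0 and 1.84 on full NTBC and 0.96, 0.80, 1.12 and 0.88 with none. It fell by 1.04 ± 0.11, and its other probe by 1.12.

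Flt4 read -3.07, -2.88, -2.69 and -2.70 on full NTBC, -2.36, -2.47, -2.24 and -2.07 on the reduced dose and -1.45, -1.51, -1.34 and -1.44 with none. The doses did not overlap, and the rises were 0.55 ± 0.21 and 1.40 ± 0.21. Tek read -2.14, -2.11, -1.78 and -2.04 on full NTBC and -0.85, -0.94, -1.0 and -0.91 with none, a rise of 1.09 ± 0.23 (limma adjusted p = 0.000207). Tie1 rose by 0.40 ± 0.15. The TGF-beta co-receptor Eng and the guidance receptor Robo4 changed by -0.09 ± 0.12 and -0.32 ± 0.15 and did not pass.

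Among junction and surface proteins with no NTBC in Fah-/- mice, 3 of 8 rose and 1 fell, against 29.3% and 41.6% of all features. Plvap, which forms the diaphragms of endothelial fenestrae, read 2.93, 2.96, 3.09 and 2.89 on full NTBC and 3.66, 3.91, 3.30 and 3.68 with none, and rose by 0.67 ± 0.19. The adhesion proteins Pecam1 and Cdh5 (VE-cadherin) rose by 0.43 ± 0.14 and 0.37 ± 0.16, and the tight junction protein Cldn5 fell by 0.52 ± 0.21. The other probe of Cdh5 gave 1.12. Esam, Icam2, Emcn and Ptprb did not pass, with changes between -0.21 and 0.25, but the other probe of Ptprb gave -1.16.

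None of the 4 transcription factors passed on withdrawal in Fah-/- mice (Gata4 0.07 ± 0.15, Sox17 -0.29 ± 0.17, Sox18 0.45 ± 0.25 and Erg 0.09 ± 0.19). Of all features 70.9% passed. The other probes of Sox17 and Erg gave 0.61 and -1.03, so for these genes the probes disagreed. Of the scavenger receptors outside the sinusoidal set, Stab1 fell by 0.34 ± 0.11 on its brighter probe and differed by 1.09 on the dimmer. The probes of Stab1 disagreed in sign in all 4 comparisons of doses. Egfl7, a secreted factor of growing endothelium, fell by 0.28 ± 0.10, and with quantile normalization and with the deposited values its change was 0.03 and 0.04. The angiocrine ligand Bmp2, which drives iron control in hepatocytes, rose by 0.43 ± 0.17. Wnt2 did not pass (0.05 ± 0.41), and Rspo3, not well above background on any Fah-/- array on full NTBC, is given no change.

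On reduced against full NTBC in Fah-/- mice 5 markers rose and 4 fell, against 17.4% and 22.3% of all features (39.8% in either direction). The groups did not overlap for 10 of 34, against 44.3% of all features. Lyve1, Pecam1, Flt4, Ptprb and Bmp2 rose, by 0.27 to 1.47, and Vwf, Stab1, Sox17 and Egfl7 fell, by 0.27 to 0.65. The other probes of Sox17 and Ptprb gave 0.20 and -0.02, which did not pass. Pecam1 read -2.07, -2.01, -2.23 and -2.35 on full NTBC and -1.48, -1.55, -1.61 and -1.69 on reduced NTBC, with no overlap, and rose by 0.58 ± 0.14 (limma adjusted p = 0.00151). Vwf, the platelet-binding protein stored by continuous endothelium, fell by 0.65 ± 0.22. The median over the 34 markers was 0.00, and -0.03 over all features. With normexp background correction 0 of the 9 calls were made, and 5 with no filter on dim probes. Without Fah-/- replicate 1, 2 or 4 on full NTBC there were 4, 3 and 4 calls, and without replicate 1 on reduced NTBC 2.

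In Fah-/- p53-/- mice most markers that passed fell. On reduced against full NTBC 16 of 34 fell and 1 rose, against 19.5% and 20.3% of all features (39.8% in all), with a median change of -0.44 and of 0.02 over all features. With no NTBC 18 fell and 4 rose, against 40.1% and 29.6% (69.7% in all), with medians of -0.43 and -0.14. With normexp 10 fell on reduced NTBC, against 39.7% of all features, with medians of -0.25 and -0.34, and with none 12 fell, against 35.8%, with medians of -0.30 and -0.41, so the markers then stood no lower than all features. The arrays with no NTBC were all female and those on full NTBC all male, so in these mice sex and the withdrawal of NTBC cannot be told apart either. The markers with both groups apart numbered 13 and 18 of 34, against 39.3% and 59.9% of all features.

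Of 7 growth factor and guidance receptors, 4 fell and 0 rose on reduced NTBC in these mice, and 5 fell and 2 rose with none. Of all features 19.5% fell and 20.3% rose on reduced NTBC, and 40.1% fell and 29.6% rose with none. Kdr read 2.70, 2.48, 2.42 and 2.75 on full NTBC, 2.36, 2.06, 2.33 and 2.37 on the reduced dose and 0.93, 1.28, 1.21 and 1.30 with none. The 3 doses were in order with no overlap, and the fall with no NTBC was 1.41 ± 0.15 (limma adjusted p = 1.28e-08). Flt1 fell by 0.53 ± 0.11 and 1.0 ± 0.11, Tie1 by 0.57 ± 0.15 and 0.40 ± 0.15, Eng by 0.50 ± 0.12 and 0.56 ± 0.12, and Robo4 by 0.74 ± 0.15 and 1.20 ± 0.15. Flt4 and Tek rose with no NTBC by 0.62 ± 0.21 and 0.66 ± 0.23, as they did in Fah-/- mice, but with normexp these changes were -0.48 and -0.15.

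Mmrn2, an extracellular matrix protein that binds VEGF-A, read 3.09, 2.84, 3.34 and 3.53 on the Fah-/- p53-/- arrays on full NTBC, 2.40, 2.03, 2.41 and 2.48 on the reduced dose and 1.87, 1.84, 1.74 and 2.16 with none. Full NTBC lay above both lower doses without overlap. It fell by 0.87 ± 0.14 and 1.30 ± 0.14 (limma adjusted p = 3.56e-05 and 1.55e-08). In Fah-/- mice it read 3.32, 3.11, 3.09 and 3.16 on full NTBC, 2.90, 3.16, 2.95 and 2.73 on the reduced dose and 3.00, 2.83, 2.90 and 3.02 with none, changes of -0.23 ± 0.14 at both doses that did not pass.

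Emcn, a sialomucin of capillary and venous endothelium, read 0.00, -0.29, 0.56 and 0.47 on the Fah-/- p53-/- arrays on full NTBC. It read -0.39, -0.69, -0.52 and -0.24 on the reduced dose and -1.23, -0.86, -0.89 and -0.62 with none, where all arrays lay below those on full NTBC. Its fall was 0.65 ± 0.16 and 1.08 ± 0.16. In Fah-/- mice all 12 arrays lay between -0.26 and 0.07. Cldn5 read 1.92, 1.5, 1.26 and 1.11 on full NTBC and -0.36, 0.14, 0.28 and 0.44 with none in Fah-/- p53-/- mice, and fell by 1.32 ± 0.21.

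The transcription factors Sox17, Sox18 and Erg fell with no NTBC in Fah-/- p53-/- mice by 1.12 ± 0.17, 0.75 ± 0.25 and 0.75 ± 0.19. Erg, an ETS factor of endothelial identity, read -0.67, -0.36, -0.55 and -0.42 there against 0.17, 0.19, 0.28 and 0.34 on full NTBC. Its other probe gave -2.27. Gata4 was the marker that rose on reduced NTBC, by 0.79 ± 0.15, with -3.27, -3.30, -3.44 and -3.20 against -4.15, -3.84, -4.03 and -4.37. With normexp its change was -0.83. Of the secreted and G protein receptor components, Egfl7 fell by 0.80 ± 0.10 and 0.84 ± 0.10 and the orphan receptor Gpr182 by 0.68 ± 0.17 and 0.97 ± 0.17. Nos3, the endothelial nitric oxide synthase, rose by 0.55 ± 0.20 with no NTBC. The ligand Wnt2 rose there by 1.13 ± 0.41, but its 4 arrays on full NTBC spread from -1.40 to 0.71 and overlapped those with none. Rspo3 fell by 0.56 ± 0.24, but its groups overlapped too. This call was kept in 8 of 17 alternatives and lost with quantile normalization and the deposited values, among others.

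**Figure D3:**
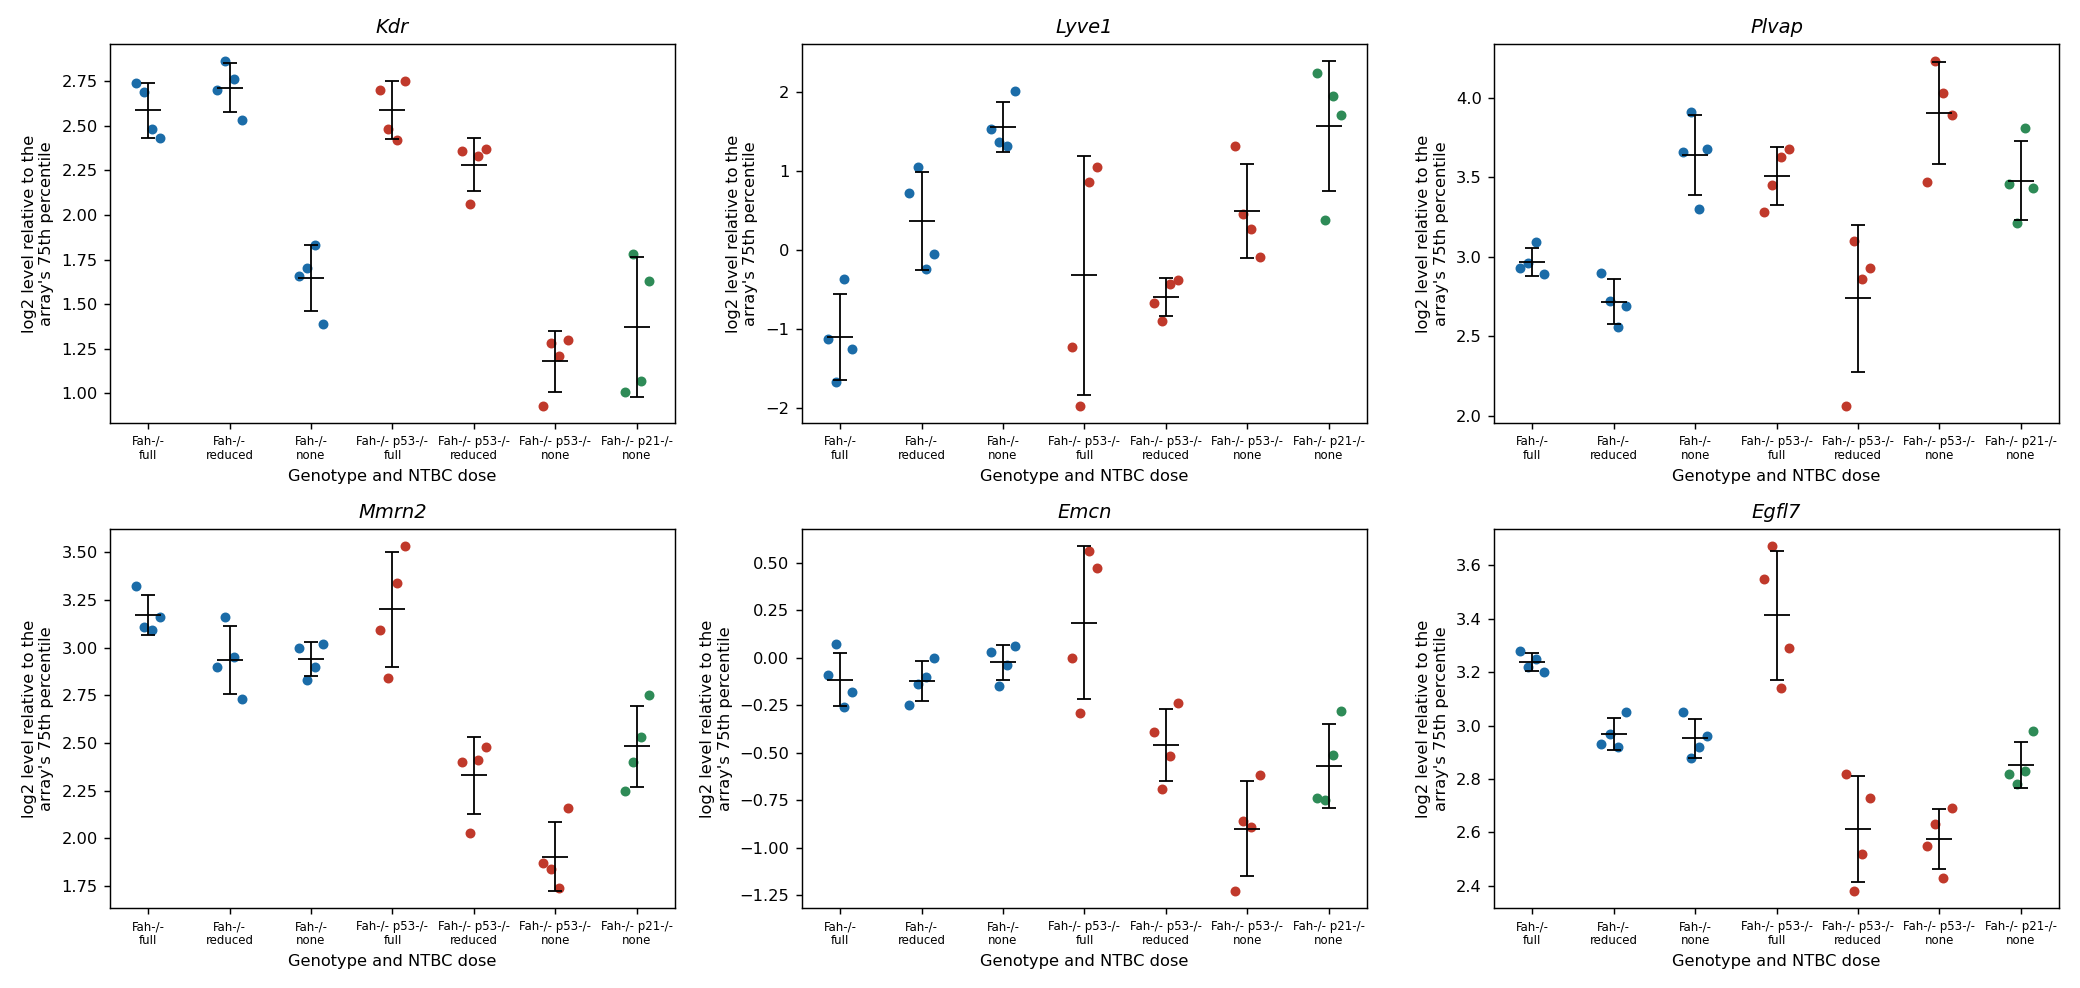
Points are log2 levels of 6 markers on each array, relative to the array's 75th percentile, by genotype and NTBC dose, with bars for the mean and SD of 4 arrays. Kdr was lower with no than with full NTBC in Fah-/- and Fah-/- p53-/- mice, Lyve1 was higher with no than with full NTBC in Fah-/- mice, and Mmrn2, Emcn and Egfl7 were lower on reduced and no than on full NTBC in Fah-/- p53-/- mice. Plvap rose with no NTBC in Fah-/- mice, and fell on reduced NTBC in Fah-/- p53-/- mice.

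Loss of p53 made no difference that passed the test in the markers on full NTBC. There 0 of 34 were called by limma (5 had an unadjusted p under 0.05), against 13.9% of all features (6.34% higher and 7.59% lower), with a median difference of 0.07. The other probe of Sox17 was higher by 0.70 (limma adjusted p = 0.0137). The arrays of 2 markers did not overlap, against 23.2% of all features. With quantile normalization 1 was called and with the deposited values 2. Both genotypes filled slides of their own in the same scan run.

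On reduced NTBC 9 markers were lower and 1 was higher in Fah-/- p53-/- than in Fah-/- mice, against 5.8% and 9.85% of all features. The median difference was -0.33 (0.04 over all features) and 29 of 34 values were negative. The 4 arrays of each genotype did not overlap for 16 markers, against 24% of all features. Lower were the receptors Flt1, Flt4 and Robo4, the surface proteins Pecam1 and Ptprb, the transcription factor Erg, the secreted Egfl7 and Mmrn2, and the ligand Bmp2, by 0.35 to 0.70, and Gata4 was higher by 0.46 ± 0.15. Mmrn2 differed by -0.61 ± 0.14 (limma adjusted p = 0.00442) and Ptprb, a phosphatase that restrains TEK, by -0.46 ± 0.10 (0.00267). Ptprb read 4.08, 3.91, 4.06 and 3.77 in Fah-/- and 3.37, 3.32, 3.56 and 3.73 in Fah-/- p53-/- mice. The other probes of Flt1, Ptprb, Erg and Gata4 gave -0.21, -0.41, -0.52 and 0.44, and none of them passed. With normexp 0 were called, where 1.08% of all features were, and the median was -0.27 (-0.04 over all features). With quantile normalization 6 were called and with the deposited values 5. Without Fah-/- replicate 1 or 2 there were 5 and 6 calls, and without Fah-/- p53-/- replicate 1 or 2 there were 6 and 3.

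With no NTBC 14 markers were lower and 0 higher in Fah-/- p53-/- than in Fah-/- mice, against 6.6% and 7.65% of all features. The median difference was -0.44 (0.01 over all features), 30 of 34 values were negative, and the arrays of 18 markers did not overlap, against 17.1% of all features. By role, 4 of 7 growth factor and guidance receptors were lower (Kdr, Flt4, Tie1 and Robo4), 3 of 8 junction and surface proteins (Pecam1, Cldn5 and Emcn), 3 of 4 transcription factors (Sox17, Sox18 and Erg), 3 of 6 secreted, enzyme and G protein receptor components (Egfl7, Mmrn2 and Gpr182), the scavenger receptor Stab1 and 0 of 3 ligands. The other probes of Stab1 and Erg gave -0.04 and -0.48, which did not pass.

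Mmrn2 differed by -1.04 ± 0.14 (limma adjusted p = 3.42e-05) and Emcn by -0.87 ± 0.16 (0.000774). Flt4 differed by -0.95 ± 0.21, Cldn5 by -0.95 ± 0.21, Sox18 by -0.83 ± 0.25, Gpr182 by -0.77 ± 0.17 and Tie1 by -0.72 ± 0.15. Flt1 did not differ beyond its error, at 0.00 ± 0.11. Of the 9 markers lower on reduced NTBC and the 14 lower with none, 6 were shared, which is 66.7% and 42.9% of these sets. These were Pecam1, Flt4, Robo4, Egfl7, Erg and Mmrn2. Of all features 5.8% were lower on reduced NTBC and 6.6% with none, and their overlap was not counted. The comparisons share no arrays, but they share the fit's estimate of the spread.

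These 4 arrays of Fah-/- p53-/- mice were all from females and the 4 of Fah-/- mice all from males. On the slide that holds both groups, with 2 arrays each, 2 markers were called and the median was -0.39. With slide as a fixed block 2 were called with a median of -0.24. The former uses fewer arrays for the means and the latter for the spread. The smaller counts alone therefore do not show smaller differences, and shares of all features are not given for them. With normexp 4 were called, against 3.58% of all features, and the median was -0.45 (0.17 over all features). The call on Mmrn2 was made in each of these.

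**Figure D4:**
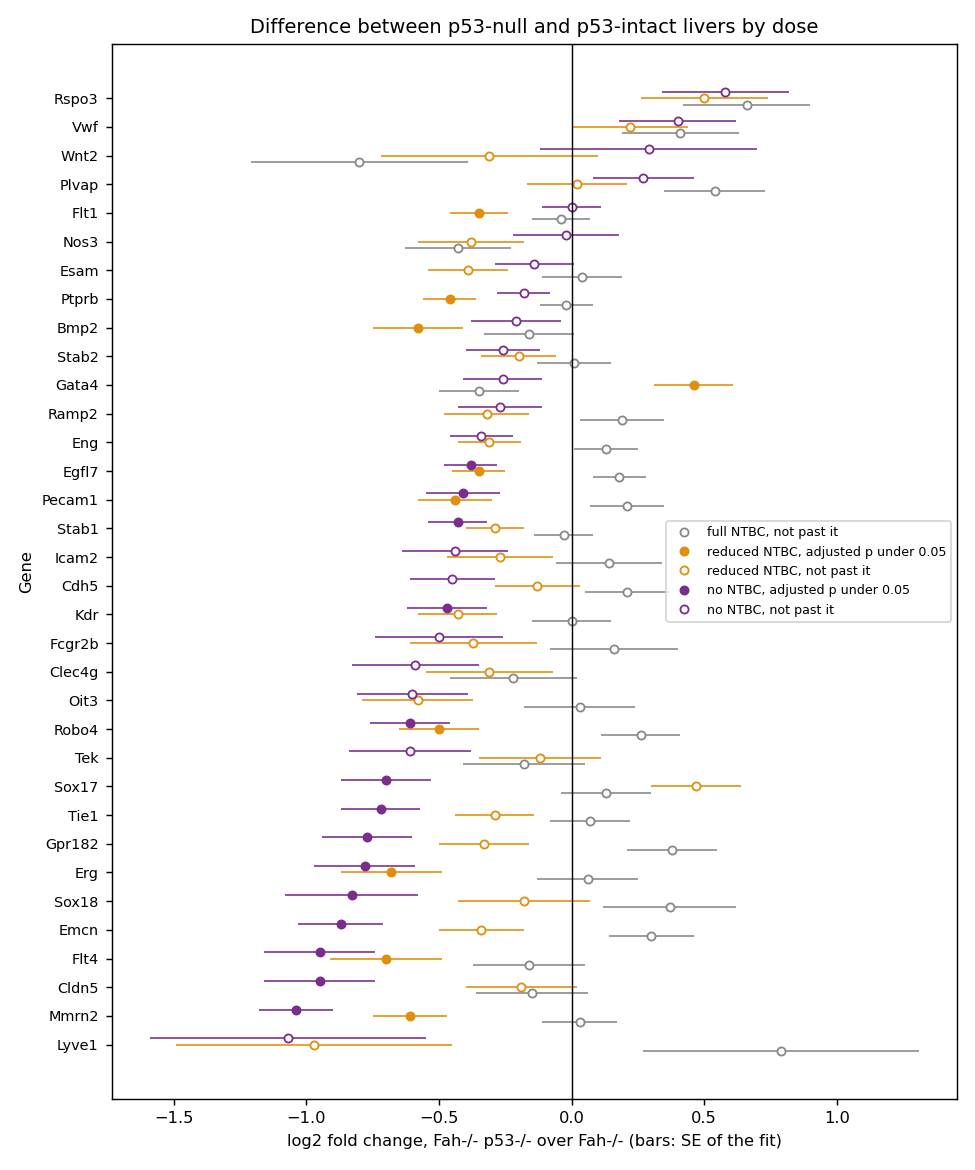
Each row is 1 of the 34 markers and each point its log2 fold change between Fah-/- p53-/- and Fah-/- mice at a dose of NTBC, with bars for the SE of the fit. Filled points have an adjusted p under 0.05: 10 at the reduced dose, 14 with no NTBC and none at the full dose. Most points with no NTBC lie left of 0, led by Lyve1, whose SE of 0.52 is wide, and Mmrn2.

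The responses themselves differed between genotypes for 6 markers on reduced NTBC and for 9 with no NTBC, against 10.4% and 9.11% of all features. On reduced NTBC the difference was negative for Pecam1, Robo4, Egfl7, Ptprb and Mmrn2 (-0.44 to -0.76), against 3.64% of all features, and positive for Gata4 (0.81 ± 0.22), against 6.74%. The other probes of Ptprb and Gata4 gave differences of -0.49 and 0.56, which did not pass. With no NTBC it was negative for Pecam1, Tie1, Emcn, Robo4, Egfl7, Sox17, Sox18, Gpr182 and Mmrn2 (-0.55 to -1.20), against 4.25%, and positive for 0, against 4.86%. The change of Emcn was 0.09 ± 0.16 without and -1.08 ± 0.16 with loss of p53, a difference of -1.17 ± 0.22 (limma adjusted p = 0.00176). For Tie1 the changes were 0.40 ± 0.15 and -0.40 ± 0.15. All of these share the arrays on full NTBC with each other. With normexp 0 and 1 were called.

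In Fah-/- p21-/- against Fah-/- mice with no NTBC 3 markers were lower, against 3.59% of all features, and 0 higher, against 3.94%. The 3 were Tie1 (-0.51 ± 0.15), Emcn (-0.54 ± 0.16) and Mmrn2 (-0.45 ± 0.14). The arrays of 5 markers did not overlap, against 12.3% of all features. The median difference was -0.28 (0.02 over all features). Mmrn2 read 2.25, 2.40, 2.53 and 2.75 and Emcn -0.74, -0.75, -0.51 and -0.28 in Fah-/- p21-/- mice, below all 4 Fah-/- arrays with no NTBC. The mean over the 34 markers was 0.35 and 0.34 on replicates 1 and 2, which were female and on a slide and scan run of their own within the group, and 0.74 and 0.84 on the male replicates 3 and 4, against 0.73 to 0.92 on the Fah-/- arrays. Without the female arrays 0 were called and the median was -0.05, and within the slide that holds both groups 0 were called and it was -0.01. There were also 0 calls without any 1 of Fah-/- replicates 1, 2 or 4 or Fah-/- p21-/- replicate 1. There was 1 without Fah-/- replicate 3 or Fah-/- p21-/- replicate 2, and 6 without Fah-/- p21-/- replicate 4.

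Of the 14 markers lower with p53 loss and no NTBC, Egfl7, Robo4, Emcn, Erg and Stab1 have a short ETS core in the 250 bases before at least 1 start in the RefSeq promoter table (GRCm38.p6), which holds 20 starts of 16 of the 34 genes. These bases are shown for 4 of them, along the strand of the gene, as a description of genes picked for holding a match. Stab1 is left out because its probes disagreed. The other probe of Erg differed by -0.48, which did not pass. Pecam1, Sox17, Sox18, Gpr182 and Mmrn2, also lower, have no start in the promoter table and could not be searched. Cldn5, Flt4, Kdr and Tie1, also lower, have no match there, and neither do 1 of 3 starts of Egfl7 and 2 of 3 of Erg. Capitals mark the letters CAGGAAG or their reverse complement.
Egfl7, chr2:26580833-26581082, + strand; Robo4, chr9:37401722-37401971, + strand; Emcn, chr3:137340828-137341077, + strand; Erg, chr16:95459349-95459598, - strand.
Egfl7: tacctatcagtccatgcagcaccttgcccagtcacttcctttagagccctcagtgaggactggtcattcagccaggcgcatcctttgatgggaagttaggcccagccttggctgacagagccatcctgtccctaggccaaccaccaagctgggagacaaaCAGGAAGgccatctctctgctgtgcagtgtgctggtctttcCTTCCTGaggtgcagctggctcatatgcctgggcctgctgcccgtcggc
Robo4: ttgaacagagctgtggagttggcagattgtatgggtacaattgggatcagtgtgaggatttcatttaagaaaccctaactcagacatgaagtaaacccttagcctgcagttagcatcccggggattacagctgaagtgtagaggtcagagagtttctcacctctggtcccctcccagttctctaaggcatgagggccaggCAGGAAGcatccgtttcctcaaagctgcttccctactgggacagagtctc
Emcn: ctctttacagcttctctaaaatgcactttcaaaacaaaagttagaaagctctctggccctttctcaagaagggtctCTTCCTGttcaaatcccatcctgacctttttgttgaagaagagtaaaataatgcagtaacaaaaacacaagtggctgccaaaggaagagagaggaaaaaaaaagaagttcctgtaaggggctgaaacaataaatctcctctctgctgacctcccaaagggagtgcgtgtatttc
Erg: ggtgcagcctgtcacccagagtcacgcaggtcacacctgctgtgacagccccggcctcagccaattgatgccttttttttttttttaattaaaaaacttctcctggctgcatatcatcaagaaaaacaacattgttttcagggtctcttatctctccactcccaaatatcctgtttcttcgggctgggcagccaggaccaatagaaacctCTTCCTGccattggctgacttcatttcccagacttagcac

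The match begins 90 and 49 bases before the start in Egfl7, 50 in Robo4, 174 in Emcn and 40 in Erg. The letters CAGGAAG were found on either strand in 6 of 20 marker promoters (30.0%) and in 10.8% of 32851 promoters of all genes. Stab1 and another start of Egfl7 held the other matches. The ETS core CCGGAAGT was found in 0 of 20 against 2.9%, the GATA core AGATAA in 5.0% against 10% and the SOX core ACAATGG in 0 of 20 against 3.0%, and neither ETS form contains the other. Binding was not measured here.

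Among ligands that act on the endothelium, Vegfa fell and Angpt2 rose with no NTBC. Vegfa, the main endothelial growth factor and made by hepatocytes, read 2.89, 2.67, 2.98 and 2.86 on the Fah-/- arrays on full NTBC and 1.27, 1.5, 1.54 and 1.62 with none, and fell by 1.37 ± 0.15 in Fah-/- and 1.79 ± 0.15 in Fah-/- p53-/- mice. On reduced NTBC in Fah-/- mice it fell by 0.41 ± 0.15. Angpt2, the TEK ligand that opposes Angpt1 and marks vessel remodelling, read -2.45, -3.44, -2.30 and -2.91 on full NTBC, -1.25, -1.16, -1.5 and -1.19 on the reduced dose and 1.13, 1.37, 1.10 and 1.39 with none in Fah-/- mice. The doses did not overlap, and Angpt2 rose by 1.5 ± 0.40 and 4.02 ± 0.40. With no NTBC it rose by 2.15 ± 0.40 in Fah-/- p53-/- mice, and the response differed by -1.87 ± 0.57 (limma adjusted p = 0.041).

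Of 34 tested genes of a list of vessel signalling, 13 rose and 11 fell with no NTBC in Fah-/- mice, and 7 rose and 14 fell in Fah-/- p53-/- mice. The shares called, 70.6% and 61.8%, were at or below the 70.9% and 69.7% of all features. S1pr1, the sphingosine phosphate receptor of endothelium, fell by 2.66 ± 0.19 and 3.24 ± 0.19, and the flow-responsive factor Klf4 rose by 2.57 ± 0.32 and 4.16 ± 0.32. For p53 loss with no NTBC 6 of these 34 genes were lower and 1 higher, against 6.6% and 7.65% of all features. Differences ranged from -1.42 to 1.67. The Notch ligand Dll4 was lower there by 1.42 ± 0.23, and Notch1 by 1.17 ± 0.25. All 4 of these p53-null arrays carried female RNA. Klf4, S1pr1 and Vegfa are also made outside endothelium.

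Of 20 tested genes of endothelial activation and of capillary basement membrane, 11 rose and 3 fell with no NTBC in Fah-/- mice, and 5 rose and 6 fell in Fah-/- p53-/- mice, which is 70% and 55% called against 70.9% and 69.7% of all features. Nid1, a basement membrane protein, rose by 4.26 ± 0.19 and 3.27 ± 0.19. Esm1, a proteoglycan of endothelial tip cells, read -0.87, -3.01, -0.14 and -2.13 on full NTBC and 1.23, 2.11, 1.54 and 2.47 with none in Fah-/- mice. In Fah-/- p53-/- mice it read -1.30, -1.75, 1.58 and 3.00 on full NTBC and -0.13, -2.37, -2.34 and -5.06 with none. It rose by 3.38 ± 0.90 and fell by 2.86 ± 0.90, a difference in response of -6.24 ± 1.27 (limma adjusted p = 0.00302), and its arrays on full NTBC spread widely. The Fah-/- p53-/- arrays with none spread from -5.06 to -0.13 and overlapped those on full NTBC. With no NTBC the laminin chain Lama4 was lower with p53 loss by 1.54 ± 0.21 and with p21 loss by 1.22 ± 0.21. All 4 of these p53-null arrays and 2 of the 4 p21-null arrays carried female RNA. Cd34, which sinusoids gain as they turn into capillaries, rose in Fah-/- mice by 0.77 ± 0.30 and changed by -0.08 ± 0.30 in Fah-/- p53-/- mice.

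**Figure D5:**
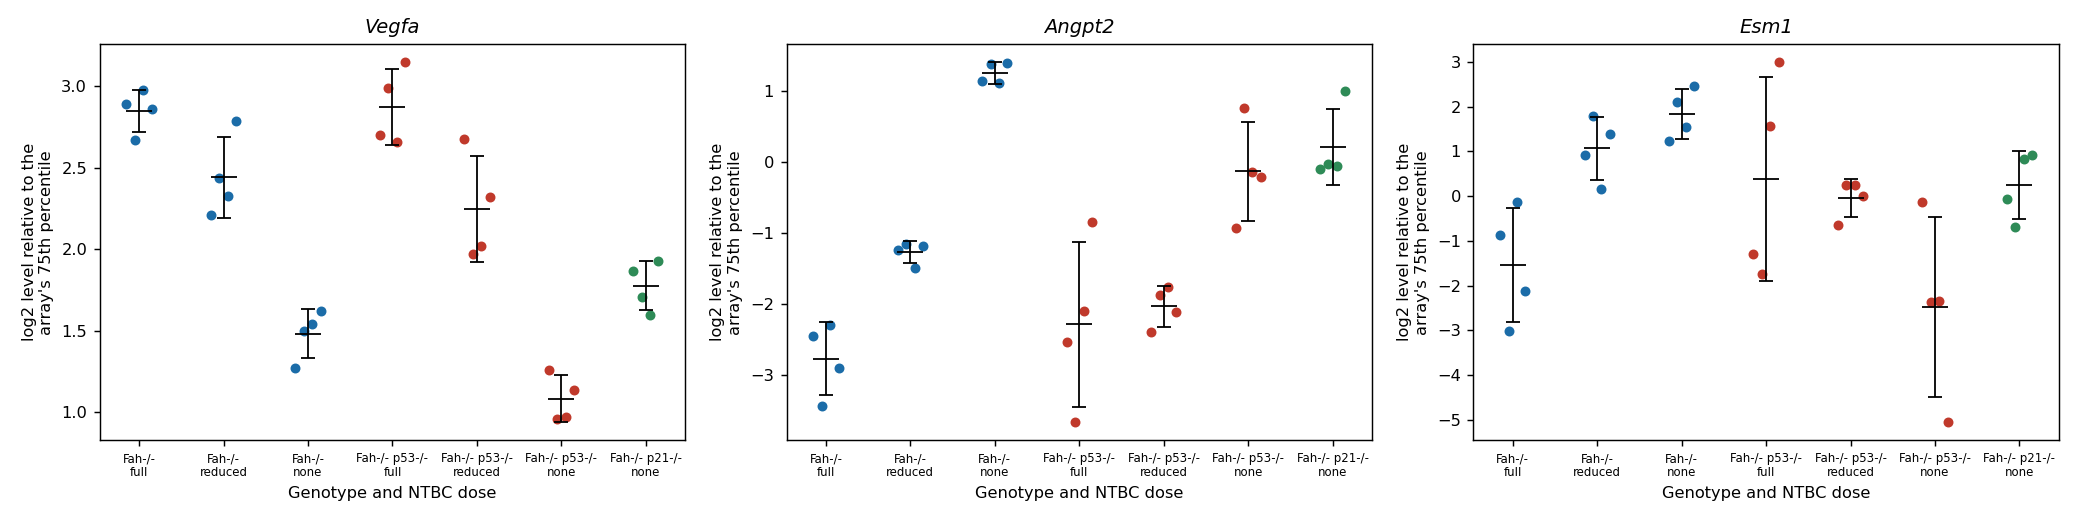
Points are log2 levels of Vegfa, Angpt2 and Esm1 on each array, relative to the array's 75th percentile, by genotype and NTBC dose, with bars for the mean and SD of 4 arrays. Vegfa was lower with no than with full NTBC in both genotypes measured at each dose, and Angpt2 was higher. The mean of Esm1 moved in opposite directions, with arrays that overlapped between these doses in Fah-/- p53-/- mice.

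Of 14 other sinusoidal genes, 3 rose and 5 fell with no NTBC in Fah-/- mice and 4 rose and 5 fell in Fah-/- p53-/- mice (57.1% and 64.3% called, below the share of all features). In Fah-/- mice Cd36, a receptor for fatty acids that other liver cells make too, rose by 1.91 ± 0.18. Ltbp4, a matrix protein that binds latent TGF-beta, fell there by 0.87 ± 0.17. With no NTBC F8, coagulation factor VIII, was lower with p53 loss by 0.92 ± 0.27 and with p21 loss by 0.98 ± 0.27. Of those arrays all 4 p53-null and 2 of 4 p21-null ones were female. Of 14 hepatocyte genes that depend on endothelial Wnt and R-spondin signals, 8 fell and 0 rose with no NTBC in Fah-/- mice, with Glul at -2.79 ± 0.32, and 7 fell and 2 rose in Fah-/- p53-/- mice, again 57.1% and 64.3% called. In Fah-/- p53-/- mice with no NTBC the mean level of these genes was 0.11 on replicate 1 and 1.67 to 1.93 on the other arrays. In Fah-/- mice Axin2, a direct Wnt target, differed by 0.66 ± 0.36 (limma adjusted p = 0.103). Of 8 genes that answer to BMP signals 1 rose and 2 fell in Fah-/- mice (37.5% called), with Id1 at 1.71 ± 0.30. Their changes ran from -6.16 to 1.71, with a median of -0.03, and their mean level went from 2.63 to 1.99. For Fah-/- p53-/- mice 3 of these genes rose and 2 fell (62.5% called). There the changes ran from -8.67 to 1.48, with a median of 0.42, and the mean level went from 2.83 to 2.17.

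Of the other cell types, hepatocyte and macrophage markers were called more often than all features when NTBC was withdrawn, in both genotypes. With no against full NTBC, 14 of 15 tested hepatocyte markers fell in Fah-/- and 15 in Fah-/- p53-/- mice, and the mean of their log2 levels went from a range of 7.65 to 7.80 to one of 5.80 to 6.17 and from 7.48 to 7.70 to one of 5.75 to 5.83. Of 14 macrophage markers 13 and 11 rose, with Clec4f of Kupffer cells at 0.75 ± 0.24 and 0.94 ± 0.24. Of 14 stellate and fibroblast markers 3 and 4 rose and 1 and 2 fell, and of 7 tested biliary markers 5 and 4 rose. Called were 93.3% and 100% of hepatocyte and 92.9% and 78.6% of macrophage markers, against 70.9% and 69.7% of all features. Stellate markers stood at 28.6% and 42.9%, and biliary markers at 71.4% and 57.1%. With p53 loss and no NTBC, where 14 of the endothelial markers were lower, 0 of 14 macrophage markers, 1 of 14 stellate markers and 1 of 7 biliary markers were higher and 0 lower. Of 12 lymphocyte and neutrophil markers 3 were lower and 0 higher (median -0.50), as were 1 of 8 platelet and 1 of 4 lymphatic markers, against 6.6% of all features lower. The hepatocyte markers then differed in 2 of 15, both lower, with Alb at -0.04 ± 0.10. For p53 loss on reduced NTBC the macrophage, stellate, biliary and hepatocyte lists had 0, 0, 0 and 1 called, against 15.6% of all features. Differences were positive for 14 of 14 macrophage markers (median 0.40) and 13 of 14 stellate markers (0.35). They were positive for 4 of 7 biliary (0.09) and 10 of 15 hepatocyte markers (0.12), with a median of 0.04 over all features. There 2 of 12 lymphocyte and neutrophil markers were higher, against 9.85% of all features. On reduced against full NTBC 12 of 15 hepatocyte markers fell in Fah-/- and 11 in Fah-/- p53-/- mice and 0 rose, where 39.8% of all features were called. The macrophage list then had 1 and 1 called, the stellate list 2 and 3 and the biliary list 3 and 4. With p21 loss and no NTBC 4 of 12 lymphocyte and neutrophil markers were lower, against 3.59% of all features, and 2 of the 4 p21-null arrays were female. Of 4 tested markers of lymphatic vessels, which also bear Lyve1 and Flt4, 1 rose with no NTBC in each genotype. Of 8 platelet markers 1 rose and 1 fell with no NTBC in Fah-/- mice, and 1 rose and 4 fell in Fah-/- p53-/- mice. Of 12 lymphocyte and neutrophil markers 2 rose and 4 fell in Fah-/- mice, and 0 rose and 7 fell in Fah-/- p53-/- mice. The lymphatic, platelet and lymphocyte lists were called at 25% and 25%, 25% and 62.5%, and 50% and 58.3%, each below all features. Replicate 1 of the Fah-/- p53-/- arrays with no NTBC was the lowest of its group for macrophage markers (1.94, others 2.90 to 3.13), stellate markers (0.95, others 1.94 to 2.31) and lymphocyte and neutrophil markers (-3.92), and for the mean of all 34 endothelial markers (0.16, others 0.34 to 0.59). Without it 13 endothelial markers were called for p53 loss (12 lower) and 21 for no against full NTBC (15 lower), with medians of -0.35 and -0.33. The part of these cell types and of the scale in the marker changes was not tested.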

How the data were processed

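Liver RNA was read on 28 Agilent arrays. The file headers name Feature Extraction 10.7.3.1 and the submitters' processing notes name 10.5. Per the file headers, the deposited scanner files hold a background-subtracted processed intensity for each spot. The values deposited by the authors are log2 numbers with array medians of 6.89 to 6.912, and how it was made is not stated.

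Control spots (1639) and 87 outlying probe values, none from a marker, were left out. Spots of a probe were averaged and each array's 75th percentile was subtracted from log2 intensities. A probe was kept if all 4 arrays of some group were well above background (27509 of 41174). The brightest kept probe stood for a gene, named through RefSeq accessions (28462 probes). The limma package (3.58.1, R 4.3.3) fitted 7 group means with 21 residual degrees of freedom, and p-values were adjusted (Benjamini-Hochberg) over 20303 features in each of 10 comparisons. The number of arrays limits the precision.

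The markers and lists were chosen with earlier results of these data known. All 34 markers could be named, with up to 4 called genes of each other list that changed most in a comparison, and Vegfa, Angpt1, Angpt2, Axin2, Lgr5, Glul, Hamp, Cd34, Clec4f and Alb whatever their call. Angpt1 was not among the features tested. Which of the genes outside the markers to describe was chosen after their values were seen.

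Alternatives were normexp background correction (offset 50, on median signals), quantile normalization, the deposited values, other filters on dim probes, averaging the probes of a gene, the compared groups alone, trended robust variances, replicate number or slide as a block, values within a slide, no female arrays, and each array left out. Equal replicate numbers did not pair the samples: deviations from group means correlated at -0.23 to 0.36, over 0.1 for 18 of 84 pairs.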

Additional observations from a re-analysis of the deposited data

Results flagged for a closer look

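Among 259 groups of 4 arrays, 14 had an array set far from the other 3 by the gap test, where chance alone flags about 1 in 20, or 12.9. On reduced NTBC in Fah-/- mice, replicate 3 was high for Fcgr2b (1.93, others 1.34 to 1.44), for Stab1 (2.94), for the mean of all markers (0.77, others 0.65 to 0.67) and for that of the general markers (0.52), while replicate 4 was low for Erg (0.19) and Ramp2 (2.20). In Fah-/- p53-/- mice on reduced NTBC, replicate 2 was low for Kdr (2.06) and Icam2 (0.64) and replicate 1 high for Tie1 (-1.13). The other arrays set apart were Fah-/- p53-/- replicate 4 for Flt4 on full NTBC (-2.63) and for Vwf with none (1.82), Fah-/- replicate 4 for Erg on full NTBC (0.09), and with no NTBC Fah-/- replicate 3 for Gata4 (-3.82) and replicate 2 for Bmp2 (-1.17).

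By the interaction term of the limma fit, the response to reduced NTBC was more negative in Fah-/- p53-/- than in Fah-/- mice for Pecam1 (-0.65), Robo4 (-0.76), Egfl7 (-0.53), Ptprb (-0.44) and Mmrn2 (-0.64), and more positive for Gata4 (0.81), with adjusted p from 0.0188 to 0.0461. The response to no NTBC was more negative for Pecam1 (-0.62), Tie1 (-0.79), Emcn (-1.17), Robo4 (-0.88), Egfl7 (-0.55), Sox17 (-0.83), Sox18 (-1.20), Gpr182 (-1.14) and Mmrn2 (-1.07), with adjusted p from 0.00134 to 0.0435. The groups with no NTBC also differed in sex, whose part in these differences cannot be told apart from that of p53.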

How the results depend on the processing

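Of 104 calls on markers over the 10 comparisons, 18 were made in the same direction under every alternative run for them. These were Lyve1, Fcgr2b, Kdr, Flt1 and Plvap for no against full NTBC in Fah-/- mice, Kdr, Flt1, Emcn, Cldn5, Robo4, Sox17, Sox18, Erg and Mmrn2 for the same in Fah-/- p53-/- mice, Tie1 and Emcn for reduced against full NTBC in Fah-/- p53-/- mice, Mmrn2 for p53 loss with no NTBC, and Emcn for the difference in response to no NTBC. With normexp, which moved the median change of all features most on reduced against full NTBC in Fah-/- p53-/- mice (from 0.02 to -0.34), the markers called fell from 9 to 0 and from 17 to 10 on reduced against full NTBC (Fah-/- and Fah-/- p53-/- mice), from 14 to 6 and from 22 to 13 with none, from 10 to 0 and from 14 to 4 for p53 loss on reduced and no NTBC, from 3 to 0 for p21 loss (with 0.901% of all features called and a median of -0.28 in the markers under both settings), and from 6 to 0 and from 9 to 1 for the differences in response. For p53 loss on full NTBC, against 0 calls, 1 was made with quantile normalization, the filter on all 28 arrays, the groups compared alone, trended robust variances or the replicate block, and 2 with the deposited values. For p53 loss on reduced NTBC 6 were made with quantile normalization and 5 with the deposited values, which also gave 5 for p21 loss. Without a filter on dim probes 5 were made in Fah-/- mice for the reduced dose against the full one and 0 for p21 loss. For p21 loss 0 were made with the groups compared alone, the fixed slide block, within a slide or without female arrays, and for p53 loss with no NTBC 2 with the slide block or within a slide. The replicate block moved no other count by over 1.5 times. With each array left out in turn, calls numbered 2 to 7 and 13 to 17 on reduced against full NTBC, 11 to 14 and 20 to 23 with none (Fah-/-, then Fah-/- p53-/- mice), 0 to 1, 3 to 9 and 10 to 16 for p53 loss on full, reduced and no NTBC, 0 to 6 for p21 loss, and 2 to 8 and 6 to 11 for the differences in response to reduced and no NTBC. The difference in response to reduced NTBC had 2 calls without Fah-/- replicate 4 on full or Fah-/- p53-/- replicate 2 on reduced NTBC, and 3 without Fah-/- replicate 3 on full, Fah-/- replicate 1 or 2 on reduced or Fah-/- p53-/- replicate 1 on full NTBC. For p53 loss on full NTBC 1 was called without Fah-/- p53-/- replicate 2, 3 or 4. Signs turned with normexp for Flt1 (0.02), Flt4 (-0.86), Gata4 (-0.83), Ramp2 (0.01), Bmp2 (-0.45) and Rspo3 (-0.96) on reduced against full NTBC and for Flt4 (-0.48), Tek (-0.15), Nos3 (-0.09) and Ptprb (0.08) with none, all in Fah-/- p53-/- mice, for Pecam1 with none in Fah-/- mice (-0.04), for Pecam1 (0.03) and Sox17 (0.07) for p53 loss with no NTBC, and for Gata4 in the difference in response to reduced NTBC (-0.57). With none in Fah-/- mice they turned for Egfl7 with quantile normalization (0.03) and the deposited values (0.04) and for Ptprb with the latter (0.26). With the mean of a gene's probes Stab1 was at 0.21 for the reduced dose and 0.37 with none in Fah-/- and 0.18 with none in Fah-/- p53-/- mice, and Erg at -0.47 with none in Fah-/- mice. The causes were not tested, and Rspo3 and Gata4 were not well above background on every array.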
